A study of Mus musculus with 3 samples.

Results

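The 41 genes described here are a module of interferon response genes, followed through single cells of mouse jaw before and after irradiation. All 41 were found by symbol among the 31253 features counted in each of the 3 libraries, and each had at least 1 unique molecular identifier (UMI, the tag that marks a single captured RNA molecule) in every library. The mice were 10-week-old males of the wild-type C57BL/6 strain. Ctrl mice had no irradiation, and the 1d and 7d groups received 10 Gy to the head and neck and were killed 1 and 7 days later. The 24 animals were shared equally among the groups, and the 8 of each group were pooled into a single cell suspension, digested with collagenase II, frozen, thawed and sequenced as 1 library with a 3′ single-cell kit. With 1 library per group no difference between groups could be tested, and the differences between Ctrl, 1d and 7d cannot be told apart from differences between 3 preparations. Every interval below is a 95% exact interval that covers counting error only, and both irradiated libraries were set against the same Ctrl library.

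Interferons are secreted when a cell senses foreign or misplaced nucleic acid. Type I interferon binds a receptor on nearby cells and acts through a complex that includes STAT2 and IRF9 and binds a DNA element called the interferon-stimulated response element, while interferon gamma, made mainly by T and NK cells, acts through a receptor and a DNA element of its own. The genes switched on include sensors that prime the next response, antiviral effectors, GTPases that attack intracellular microbes, and brakes on the signal. Bone marrow fills the mouse jaw, so most cells here were blood cells and their precursors.

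The members fell into 7 roles. The sensors of nucleic acid were Ifih1, Ddx58, Dhx58 and Zbp1, and the transcription factors were Irf7, Irf9 and Stat2. Antiviral effectors made up the largest group, with the RNA-binding proteins Ifit1, Ifit2, Ifit3 and Ifit3b, the ubiquitin-like modifier Isg15, the radical enzyme Rsad2 and its neighbour Cmpk2, the oligoadenylate synthetase family Oas1a, Oas2, Oas3, Oasl1 and Oasl2, the tether Bst2 and the entry blocker Ifitm3. The PYHIN family, whose proteins bind DNA, had Ifi203, Ifi204, Ifi207, Ifi209 and Ifi213. The GTPases were Gbp2, Gbp3, Gbp7, Igtp, Irgm1 and Ifi47, the brakes Usp18 and Trim30a, and the other stimulated genes Ifi44, Ifi27l2a, Xaf1, Rtp4, Parp14, Slfn5 and Slfn8. Several lie side by side in the genome (GRCm38): the 5 PYHIN genes on chromosome 1 and the 4 Ifit genes on chromosome 19. The 5 Oas and Oasl genes are spread more widely, between bases 114896936 and 120907521 of chromosome 5. Cmpk2 and Rsad2 lie 12752 bases apart on opposite strands of chromosome 12. Near-identical copies such as Ifit3 and Ifit3b, and neighbours within the PYHIN and Gbp families, can share reads, so their separate values are uncertain.

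RefSeq promoter windows on build GRCm38.p6 were at hand for 33 of the 41 members. The core of the response element, GAAANNGAAA on either strand, lay within 250 bases before a start site in 20 of those 33 genes (60.6%), against 3.46% of all 27025 genes searched the same way. The interferon gamma element TTCNNNGAA was found in 15.2% of the members and 8.13% of all genes. A match describes the letters of the window and shows no binding. Below are 60 bases, read 5′ to 3′ along the gene, from 6 of the 20 members with a core, with the cores in capitals. Ifit1 is from chr19:34640779-34640838 on the plus strand, Isg15 from chr4:156200850-156200909 on the minus strand, and Rsad2 from chr12:26456538-26456597 on the minus strand. Bst2 is from chr8:71537562-71537621 on the minus strand, Igtp from chr11:58199496-58199555 on the plus strand, and Trim30a from chr7:104465195-104465254 on the minus strand.
Ifit1: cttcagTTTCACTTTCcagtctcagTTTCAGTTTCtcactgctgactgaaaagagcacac
Isg15: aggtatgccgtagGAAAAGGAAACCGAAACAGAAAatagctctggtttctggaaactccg
Rsad2: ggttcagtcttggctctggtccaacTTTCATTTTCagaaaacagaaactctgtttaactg
Bst2: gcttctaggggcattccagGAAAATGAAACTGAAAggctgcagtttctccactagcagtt
Igtp: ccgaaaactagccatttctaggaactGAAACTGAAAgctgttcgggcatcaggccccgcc
Trim30a: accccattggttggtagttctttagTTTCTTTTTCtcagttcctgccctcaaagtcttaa
The element stood at different distances from the start sites of these genes, 34 bases before that of Igtp and 120 bases before that of Rsad2. The Isg15 window held 3 overlapping copies of the core. Ifitm3, the member with most UMIs, had no such core in its window, and Ifi27l2a was among the members without a window.

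After filters on UMIs, genes and mitochondrial share, and after removal of called doublets, 8623 cells of Ctrl, 4879 of 1d and 6094 of 7d were kept, with 35960821 to 39854533 UMIs per library. Median UMIs per cell were 2419 in Ctrl, 5022 in 1d and 3816 in 7d, so each cell was thinned at random to 1000 UMIs for every level per cell, and shallower cells were left out. Pairs of libraries shared 11, 14 and 9 cell barcodes. Clustering, done without 86 interferon genes, gave 45 clusters, of which 37 could be named by markers into 21 cell classes, while 928 cells stayed unnamed. The names rest on markers and on rules that were set after the data had been seen.

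Over all kept cells, member UMIs per thinned cell were 2.33 in Ctrl, 1.87 in 1d and 1.24 in 7d. Over the 8 classes with at least 50 cells in every library, the levels with each library's own mix of cells were 2.45, 1.84 and 1.35. Weighted by the cell shares of Ctrl instead, they were 2.45, 1.86 and 1.66, so the gap between the irradiated libraries was smaller. Ifitm3 held 34.0% of the 184571 member UMIs, Ifi27l2a 15.4% and Bst2 6.17%, and these 3 genes together held 55.6%. Ifi44 with 147 UMIs and Ifit3b with 176 were the scarcest.

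In Ctrl the module was highest in macrophages at 6.1 member UMIs per thinned cell, conventional dendritic cells at 5.95, monocytes at 5.79 and endothelial cells at 5.43. The intervals of these 4 neighbours overlapped. Mature neutrophils came next at 3.47 (3.40 to 3.55), clear of the classes on both sides. Mesenchymal cells at 2.18 and neutrophil precursors at 2.08 overlapped, small pre-B or immature B cells stood at 1.53 and T cells at 1.51, and the lowest were mature B cells at 0.899, NK or innate lymphoid cells at 0.822, granulocyte progenitors at 0.776 and mast cells or basophils at 0.534. Among classes with at least 50 cells, plasmacytoid dendritic cells at 6.98 and conventional dendritic cells at 6.21 led in 1d with overlapping intervals, and in 7d conventional dendritic cells at 4.93 and monocytes at 4.71 did. Macrophages lay above them in both libraries, at 7.69 and 5.00, but numbered 43 and 15 cells.

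**Figure D1:**
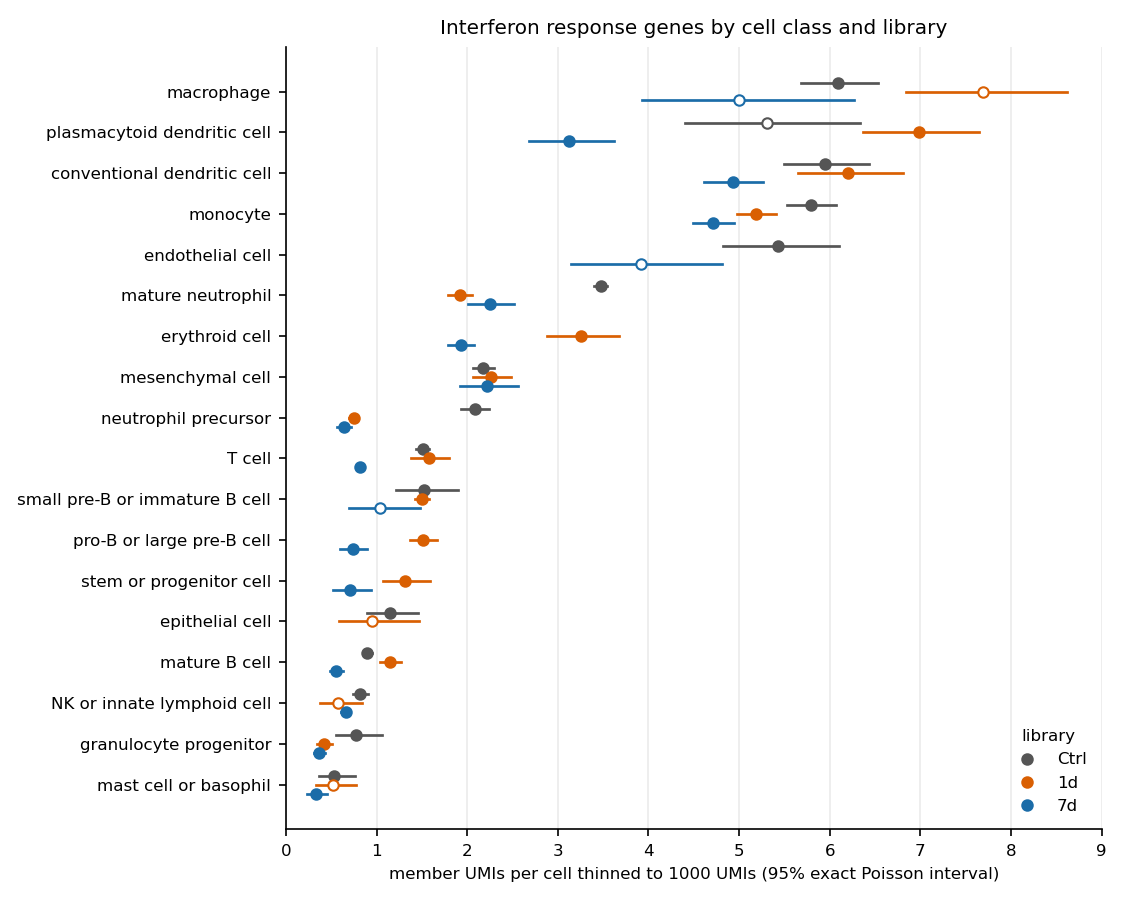
Member UMIs per cell thinned to 1000 UMIs (x axis) by cell class (y axis) in the Ctrl, 1d and 7d libraries, with 95% exact Poisson intervals as bars; open circles stand for fewer than 50 cells. Neutrophil precursors lie at 2.08 in Ctrl, 0.747 in 1d and 0.640 in 7d, whereas mesenchymal cells lie at 2.18, 2.27 and 2.22.

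The members did not share 1 pattern over cell classes. For single genes, levels are given as UMIs per 1000000 UMIs of the class (CPM), where a UMI counts a molecule whatever the transcript's length. Ifitm3 was high in endothelial cells of Ctrl (2632 CPM), conventional dendritic cells (2383) and monocytes (2289) and low in NK cells (8.87). Bst2 was a gene of plasmacytoid dendritic cells, at 2994, 3263 and 2167 CPM in Ctrl, 1d and 7d, against 13.1, 5.13 and 8.04 in neutrophil precursors. Over 41 pairs of class and library with at least 50 cells, Oasl2 followed the sum of the other members most closely (Spearman's rho 0.82), while Gbp3 at 0.03 and Gbp7 at -0.03 did not follow it. The order depends on the abundant members. With Ifitm3, Bst2 and Ifi27l2a left out of the sum, Usp18 was closest (0.83), with Oasl2 at 0.77, Gbp3 at 0.10 and Gbp7 at 0.17. These correlations only describe, since classes of 1 library share its depth and free RNA. NK cells, near the bottom of the Ctrl order for the whole module, held the most Gbp7 of any pair, at 74.2 CPM.

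**Figure D2:**
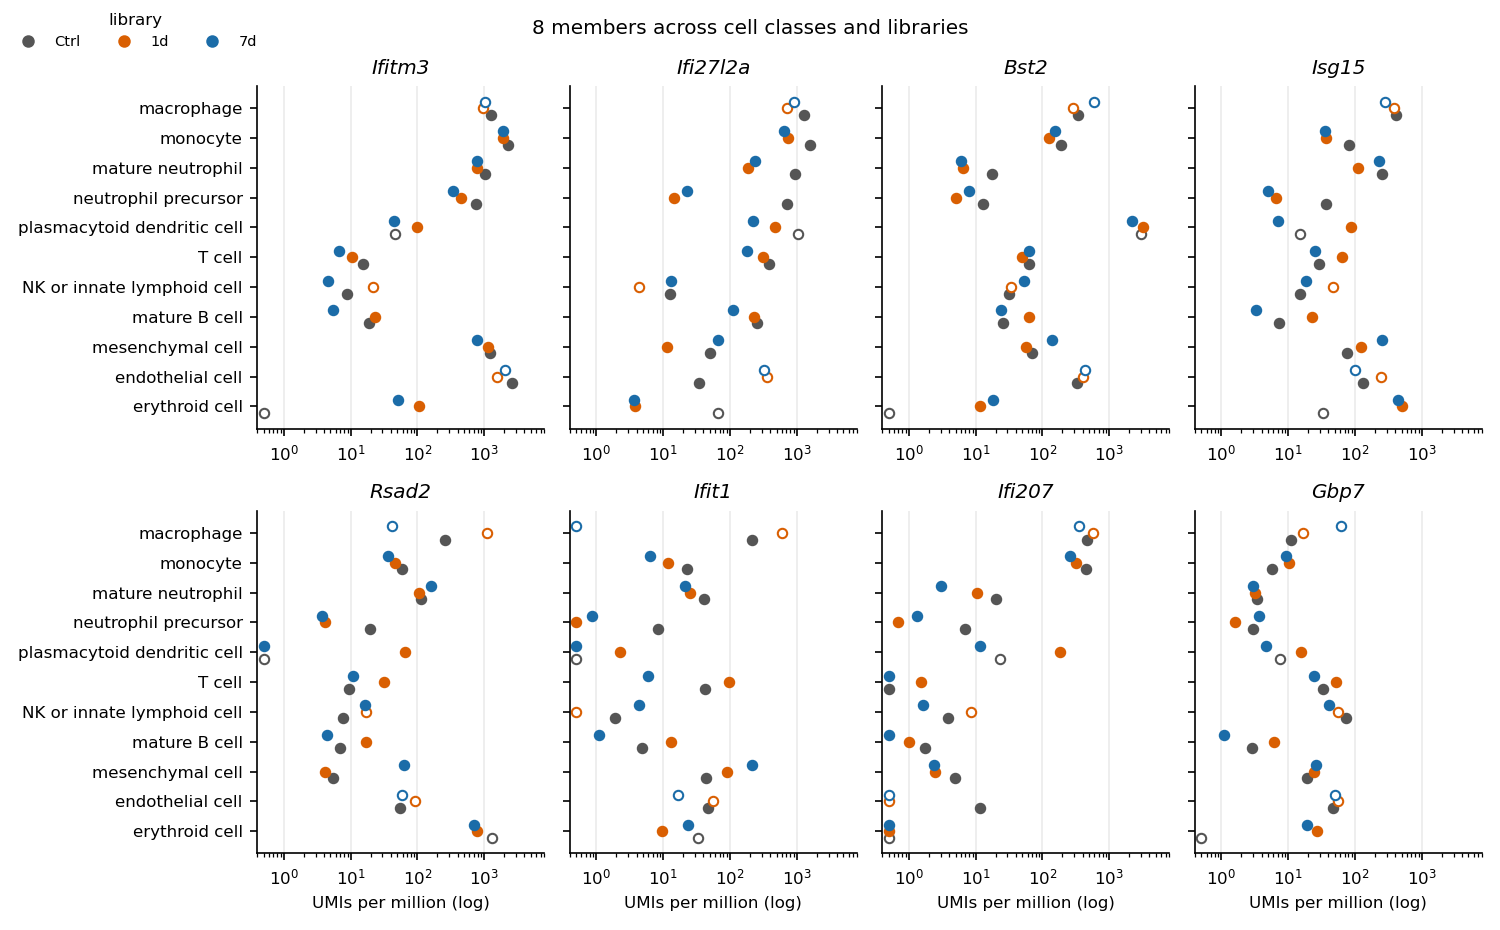
UMIs per 1000000 UMIs of the class (log x axis) for 8 members in 11 cell classes of each library; open circles stand for fewer than 50 cells and values under 0.5, zeros included, are drawn at 0.5. Ifi27l2a in neutrophil precursors lies at 14.6 in 1d and 23.0 in 7d against 710 in Ctrl, and Bst2 stands out in plasmacytoid dendritic cells.

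As a ratio to Ctrl, and where both libraries held 50 cells or more of a class, the widest gap was in neutrophil precursors, the granule-making cells of the marrow. Their module level was 2.08 in Ctrl (341 thinned cells), 0.747 in 1d (1234 cells) and 0.640 in 7d (428 cells). The ratio to Ctrl was 0.359 (0.325 to 0.396) in 1d and 0.308 (0.267 to 0.354) in 7d. In 1d, 25 of 33 measured members, meaning 20 UMIs or more when both libraries are summed, were lower by 2-fold or more and 0 were higher, against 10.0% and 9.02% of all 9717 genes measured. In 7d the counts were 23 lower and 0 higher of 32, against 10.7% and 19.8% of all genes. The median member log2 ratio was -1.67 in 1d and -1.92 in 7d, beside 0.05 and 0.24 over all genes.

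Ifi27l2a, a small membrane protein gene of the interferon-alpha-inducible family, led this gap. It had 3356 UMIs in neutrophil precursors of Ctrl, 191 in 1d and 106 in 7d, which is 710, 14.6 and 23.0 CPM. At least 1 UMI was seen in 37.2% of thinned cells in Ctrl, 2.11% in 1d and 3.74% in 7d, and no single cell of Ctrl held more than 2.77% of the UMIs. In NK cells of Ctrl, taken as a class with little of this gene and so as a level for free RNA, 1.34% of thinned cells had a UMI, with a median depth before thinning of 2763 UMIs against 10210 in the precursors. In NK cells of 7d the share was 0.473%, and in 1d 0 of 47 thinned cells had a UMI, which allows a share of cells with a UMI of up to 6.38%. The part of free RNA in the precursor values was not tested.

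Several antiviral effectors were lower beside it. Ifit1 had 39 UMIs in Ctrl, 5 in 1d and 4 in 7d, and Isg15 had 173, 86 and 23, or 36.6, 6.58 and 5.00 CPM. Rsad2 stood at 19.3, 4.13 and 3.69 CPM, Oas3 at 30.5, 8.03 and 8.48, and Rtp4, a chaperone of receptor transport, at 13.3, 1.76 and 1.09. Ifitm3, the most abundant member there, stood at 760, 448 and 337 CPM. Cmpk2 differed with the scale: it was 21.0, 9.26 and 15.9 CPM, but 5.86, 15.4 and 14.0 UMIs per 1000 thinned cells. Of the transcription factors, Irf7 stood at 18.6, 15.7 and 11.7 CPM, Irf9 at 37.9, 18.5 and 16.7 and Stat2 at 7.62, 4.59 and 3.91. Irf7 also differed with the scale, at 20.5, 32.4 and 16.4 UMIs per 1000 thinned cells. Its 1d value thus lay above Ctrl at equal depth, with overlapping intervals. Among the sensors Zbp1 stood at 6.99, 1.38 and 1.52 CPM and Ddx58 at 22, 9.64 and 12.8, while Ifih1 was at 4.87, 3.83 and 5.65.

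The 1d ratio of 0.359 was 0.147 without Ifitm3 and 0.364 without Ifitm3, Bst2 and Ifi27l2a together, so the smaller members alone gave about the same gap as the whole module. The precursors fell into a cluster with 14 cells in Ctrl, 264 in 1d and 193 in 7d, and a larger one with 335, 974 and 240. Within the larger cluster alone the levels were 2.15, 0.853 and 0.933, with ratios of 0.396 in 1d and 0.433 in 7d. Ifi27l2a there was 859 UMIs per 1000 thinned cells in Ctrl, 34.0 in 1d and 76.0 in 7d. Macrophage marker RNA in the precursors also differed, at 104, 31.9 and 17.8 CPM, and its part in the result was not tested.

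Mature neutrophils were also lower than Ctrl in both irradiated libraries. Their level was 3.47 in Ctrl, 1.92 in 1d and 2.25 in 7d, and the ratio to Ctrl was 0.552 (0.512 to 0.594) and 0.648 (0.577 to 0.725). In 1d, 7 of 35 members were lower by 2-fold or more and 1 was higher, against 6.00% and 3.40% of all genes. In 7d, 10 were lower and 1 higher, against 13.8% and 17.4% of all genes. Ifi27l2a again led, at 940 CPM in Ctrl, 189 in 1d and 239 in 7d. Rtp4 stood at 109, 54.2 and 17.9 and Gbp2, a guanylate-binding GTPase, at 32.9, 12.9 and 17.9.

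Single antiviral genes of mature neutrophils differed in their patterns. Isg15 was 258 CPM in Ctrl, 112 in 1d and 233 in 7d, so the 7d library lay close to Ctrl. Rsad2 was 114, 105 and 161, Oasl1 42.3, 34.0 and 59.8 and Ifit1 41.6, 25.1 and 20.9. Cmpk2, the nucleotide kinase gene beside Rsad2, was higher in 1d with a ratio of 2.87 (1.75 to 4.62), from 50 UMIs in Ctrl and 29 in 1d. At equal depth its levels overlapped, at 9.26 UMIs per 1000 thinned cells (5.80 to 14.0) in Ctrl and 12.2 (3.96 to 28.5) in 1d. Irgm1 was also higher in 1d, at 30.8 against 18.2 CPM, while Irf7 was lower, at 22.7 against 48.6. Ifitm3 stood at 1047, 788 and 777, Ifit3 at 9.50, 3.24 and 8.97, Bst2 at 17.9, 6.48 and 5.98, Igtp at 5.24, 9.71 and 5.98 and Stat2 at 9.99, 9.71 and 2.99. At equal depth Bst2 was not lower, with 9.68, 9.76 and 14.3 UMIs per 1000 thinned cells, and neither was Gbp2 of 7d, with 42.9 against 38.3 in Ctrl. Usp18, the protease that removes Isg15, had 53 UMIs in Ctrl, 13 in 1d and 0 in 7d. These raw counts do not allow for the different numbers of cells. At equal depth Usp18 had 10.94 UMIs per 1000 thinned cells (7.145 to 16.03) in Ctrl and 7.317 (1.509 to 21.38) in 1d, with overlapping intervals. The 7d interval reached 26.35 and overlapped both. In 7d 0 of 140 thinned cells had a UMI, which allows a share of cells with a UMI of up to 2.14% and says nothing of cells that express the gene. Both clusters of mature neutrophils were lower than Ctrl, with ratios of 0.520 and 0.650 in 1d and 0.583 and 0.714 in 7d.

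Granulocyte progenitors, the stage before the precursors, had low levels throughout, at 0.776, 0.417 and 0.369. Ifi27l2a was 82.8, 9.13 and 8.23 CPM in Ctrl, 1d and 7d, but 34.3% of its Ctrl UMIs came from 1 of 50 cells. In 1d 5 of 29 members were lower by 2-fold or more and 2 higher, against 4.80% and 4.26% of all genes, and in 7d 12 of 30 were lower and 2 higher, against 5.94% and 7.23%. These counts differed within the largest cluster alone, where 0 were lower and 3 higher in 1d, with a median log2 ratio of 0.07 in place of -0.34, and 4 were lower and 3 higher in 7d. Xaf1, a partner of an apoptosis inhibitor, was the member furthest above Ctrl in 7d, with 10 UMIs in Ctrl, 37 in 1d and 156 in 7d and a 7d ratio of 3.10 (1.64 to 6.59), but only 1, 1 and 5 UMIs after thinning. No progenitor of any library reached 5 member UMIs per 1000.

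**Figure D3:**
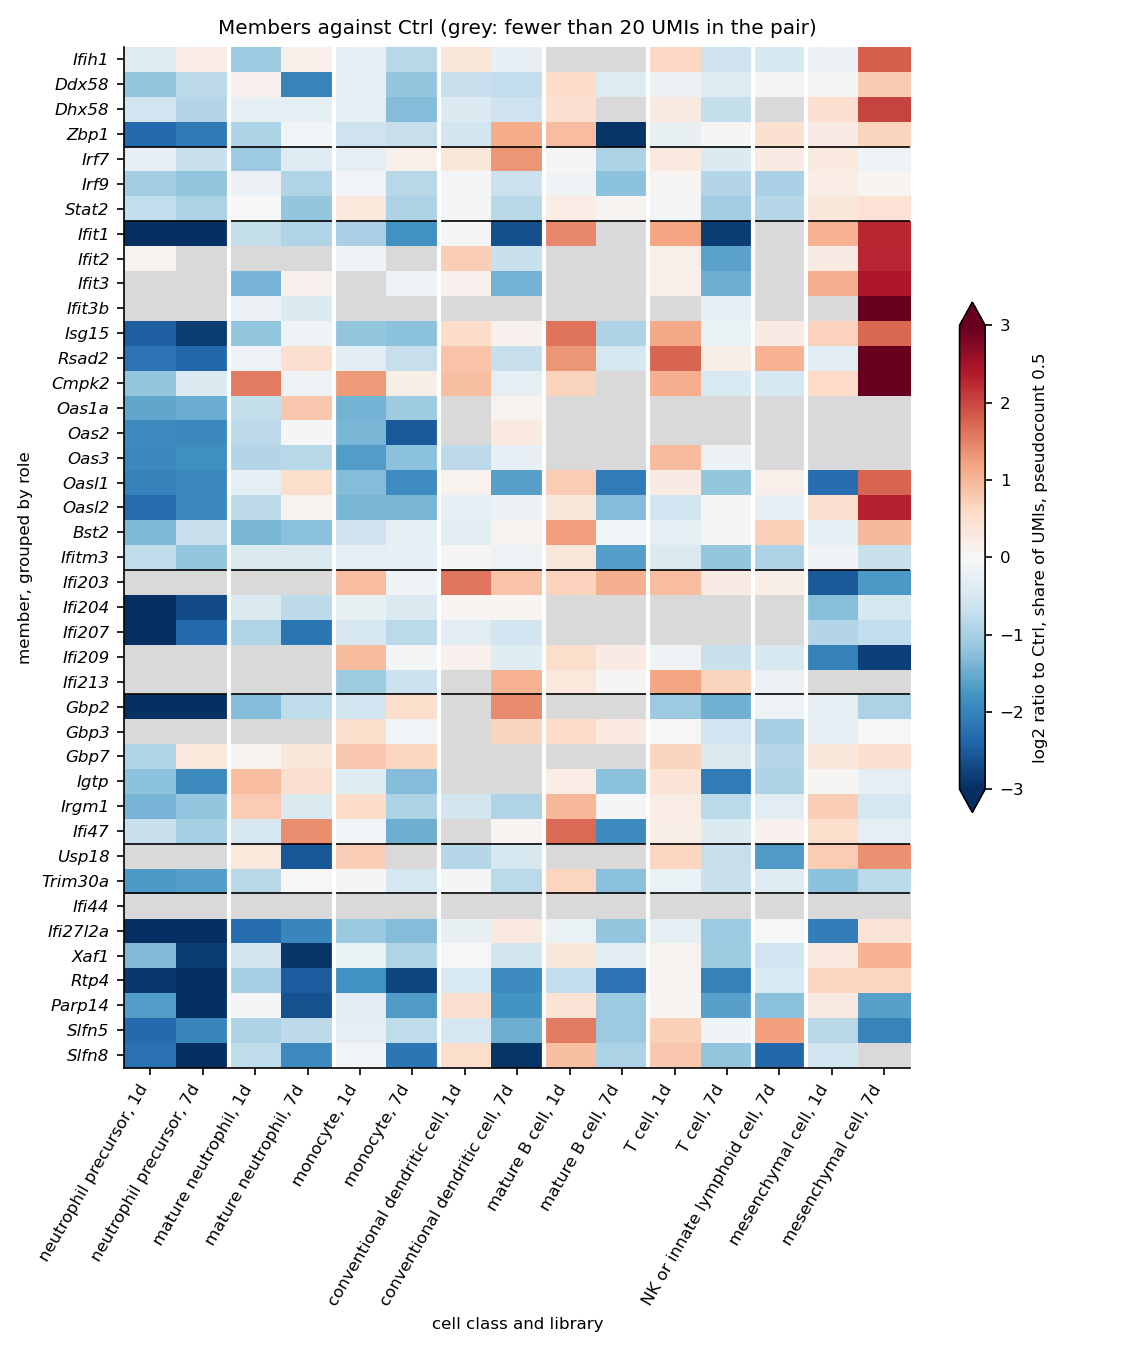
Log2 ratio to Ctrl of each member's share of UMIs (colour, pseudocount 0.5) for the 41 members (rows, grouped by role) in 15 comparisons (columns); grey marks fewer than 20 UMIs over the 2 libraries. The neutrophil precursor columns are mostly blue, with medians of -1.67 and -1.92, mature B cells of 1d are mostly red, and the red antiviral block of mesenchymal cells in 7d comes mainly from 1 cell.

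Monocytes, among the highest classes in every library, stood at 5.79 in Ctrl, 5.19 in 1d and 4.71 in 7d. The ratio was 0.895 (0.842 to 0.952) in 1d and 0.813 (0.761 to 0.869) in 7d. In 1d, 9 of 38 members were lower by 2-fold or more and 1 was higher, against 5.25% and 18.8% of all genes. In 7d, 15 of 37 were lower and 0 higher, against 7.75% and 15.9%. The median member log2 ratio was -0.28 in 1d and -0.83 in 7d, whereas all genes had medians of 0.29 and 0.22.

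Within monocytes the 5 members of the synthetase family had a lower CPM than Ctrl in both irradiated libraries. Oas1a was 29.7, 11.2 and 14.1 CPM in Ctrl, 1d and 7d, Oas2 17.7, 6.81 and 2.96, Oas3 37.5, 11.7 and 15.9, Oasl1 36.7, 14.8 and 9.99 and Oasl2 48.0, 18.5 and 18.5. At equal depth Oas1a was not lower, at 12.5, 15.8 and 19.6 UMIs per 1000 thinned cells, from 4, 7 and 7 UMIs. Rtp4 stood at 48.0, 13.6 and 7.03 and Ifi27l2a at 1610, 739 and 656. Of the PYHIN genes, 2 were higher in 1d: Ifi203 was 98.9, 189 and 89.9 CPM and Ifi209 57.9, 112 and 55.9. Irf7 was 56.5, 45.9 and 62.5, Isg15 82.7, 36.5 and 35.1, Bst2 189, 124 and 156 and Ifitm3 2289, 1896 and 1933. At equal depth Ifitm3 was not lower, at 2050, 2122 and 2198 UMIs per 1000 thinned cells. Bst2 had 166, 124 and 201 on that scale, so its 7d value lay above Ctrl.

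The monocyte class held different cells in each library. A cluster with 266 Ctrl cells had 186 in 1d and 12 in 7d, and a second had 74, 262 and 347. Inside the first, the 1d ratio was 1.04 (0.960 to 1.13), so the direction of the pooled 1d value turned, and inside the second it was 0.681 (0.614 to 0.757). For 7d only the second cluster could be compared, with a ratio of 0.657. Neutrophil marker RNA in monocytes stood at 14650 CPM in Ctrl, 1412 in 1d and 1110 in 7d, and its part in the result was not tested.

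T cells of 7d were lower than Ctrl, and the interval for 1d spanned 1 over the whole class but not within the largest cluster, where the ratio was 1.43 (1.14 to 1.78). Member UMIs per thinned cell were 1.51 in Ctrl, 1.58 in 1d and 0.818 in 7d, with ratios of 1.05 (0.911 to 1.20) and 0.543 (0.506 to 0.581). In 7d, 13 of 36 members were lower by 2-fold or more and 0 higher, against 6.96% and 3.50% of all genes. Ifit1 had 176 UMIs in Ctrl, 63 in 1d and 38 in 7d, or 42.2, 96.1 and 5.89 CPM, and the 7d ratio was 0.140 (0.0957 to 0.199). The GTPase gene Igtp was 84.8, 111 and 19.9 CPM, Rtp4 22.3, 22.9 and 5.43, and Parp14, an ADP-ribosyltransferase gene, 63.7, 65.6 and 20.6. Ifi27l2a stood at 379, 310 and 178, Gbp2 at 60.1, 27.4 and 22.2, Stat2 at 29.0, 27.4 and 14.0 and Irgm1 at 33.1, 38.1 and 18.9.

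Some members of T cells were not lower in 7d. Ifi203 was 68.0 CPM in Ctrl and 81.1 in 7d, Ifi213 9.58 and 15.4, Bst2 62.3 and 63.6 and Isg15 29.5 and 25.6. In 1d 5 of 35 members were higher by 2-fold or more and 1 lower, against 4.03% and 4.92% of all genes. Those furthest above Ctrl were Rsad2 with a ratio of 3.34 (1.87 to 5.80), Ifit1 with 2.28, Isg15 with 2.17 and Ifi203 with 1.90. At equal depth Ifit1 was not above Ctrl, at 54.5 UMIs per 1000 thinned cells in Ctrl (4.29% of cells with a UMI) and 41.1 in 1d (2.74%). Rsad2 had 9.90 (5.12 to 17.3) in Ctrl and 20.55 (4.24 to 60.05) in 1d, with overlapping intervals. The intervals of Isg15 stayed apart, at 21.45 (14.0 to 31.4) and 82.2 (42.5 to 144). The values rest on few cells: the 63 Ifit1 UMIs of 1d lay in 15 of 151 cells, with 25.4% in 1 of them. Without the 1 cell of each library that had most member UMIs, 2 members were higher and 2 lower in 1d, and the median log2 ratio was 0.02 in place of 0.20. The 7d median was -0.69 without it and -0.67 with it. Regulatory T-like cells, a cluster with Foxp3 and Ctla4 among its leading genes, had the highest Ctrl level of the T cell clusters, at 2.39 in Ctrl and 2.18 in 7d with a ratio of 0.912 (0.785 to 1.06), while the largest T cell cluster stood at 0.646 (0.580 to 0.720). Neutrophil marker RNA in T cells was 1454, 1076 and 360 CPM, its part in the result was not tested, and neutrophils themselves held 179200 CPM in Ctrl.

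Mature B cells were above Ctrl in 1d and below it in 7d, at 0.899 in Ctrl, 1.15 in 1d and 0.552 in 7d. The ratios were 1.28 (1.14 to 1.43) and 0.614 (0.534 to 0.704). In 1d, 6 of 28 members were higher by 2-fold or more and 0 lower, against 2.42% and 3.21% of all genes. In 7d, 12 of 25 were lower and 1 higher, against 9.42% and 3.66%. The median member log2 ratio was 0.58 in 1d and -0.96 in 7d, beside 0.00 and -0.11 over all genes.

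On day 1 the B cell genes furthest above Ctrl were Ifi47, an immunity-related GTPase gene, with 35 UMIs in Ctrl and 32 in 1d (10.1 and 32.6 CPM), and Isg15 with 7.23 and 22.4 CPM. Slfn5 stood at 10.4 and 30.6 and Bst2 at 26.0 and 62.1. At equal depth the intervals of Isg15 and Bst2 overlapped between Ctrl and 1d. Isg15 had 6.65 UMIs per 1000 thinned cells (3.32 to 11.9) in Ctrl and 11.7 (3.19 to 29.95) in 1d. Bst2 had 25.4 (18.3 to 34.3) and 32.2 (16.06 to 57.55). The 32 Ifi47 UMIs lay in 21 of 346 cells, but 40.9% of the 22 Isg15 UMIs came from 1 cell, and 4 members in place of 6 were higher without the cell that had most member UMIs. On day 7 Zbp1, the sensor of Z-form nucleic acid, had 1 UMI against 43 in Ctrl, a ratio of 0.0885 (0.00219 to 0.520). Oasl1 stood at 21.1 CPM in Ctrl and 4.40 in 7d, Irf9 at 66.2 and 27.5, Irf7 at 26.3 and 13.2 and Ifi27l2a at 259 and 113. Ifi203, at 69.4, 112 and 146 CPM in Ctrl, 1d and 7d, was the 1 member higher by 2-fold or more in 7d. In all, 5 of the 25 measured members lay above Ctrl there. The 2 clusters of mature B cells differed in 1d, with ratios of 1.37 (1.20 to 1.56) in the larger and 0.784 (0.615 to 0.994) in the smaller. Both were lower in 7d, at 0.571 and 0.591. Neutrophil marker RNA in B cells stood at 1001, 1296 and 419 CPM, and its part in the result was not tested.

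Immature B cells were found mainly in 1d. Pro-B or large pre-B cells had no cell in Ctrl and levels of 1.51 in 1d and 0.737 in 7d, with Ifi27l2a at 200 and 74.7 CPM. Small pre-B or immature B cells stood at 1.53 in Ctrl (53 thinned cells) and 1.5 in 1d (886 cells), a ratio of 0.981 (0.783 to 1.24), and at 1.03 in 29 cells of 7d. The median member log2 ratio was 1.09 over 23 members, beside 0.62 over all genes, but -0.28 when the sums were taken from thinned cells. As shares of the UMIs of unthinned cells, Ifi209 had a 1d ratio of 3.65 (2.26 to 6.31) and Ifitm3 one of 0.133 (0.0732 to 0.243). At equal depth Ifitm3 had 1 UMI in Ctrl and 7 in 1d. That is 18.9 UMIs per 1000 thinned cells (0.478 to 105) and 7.90 (3.18 to 16.3), with overlapping intervals.

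**Figure D4:**
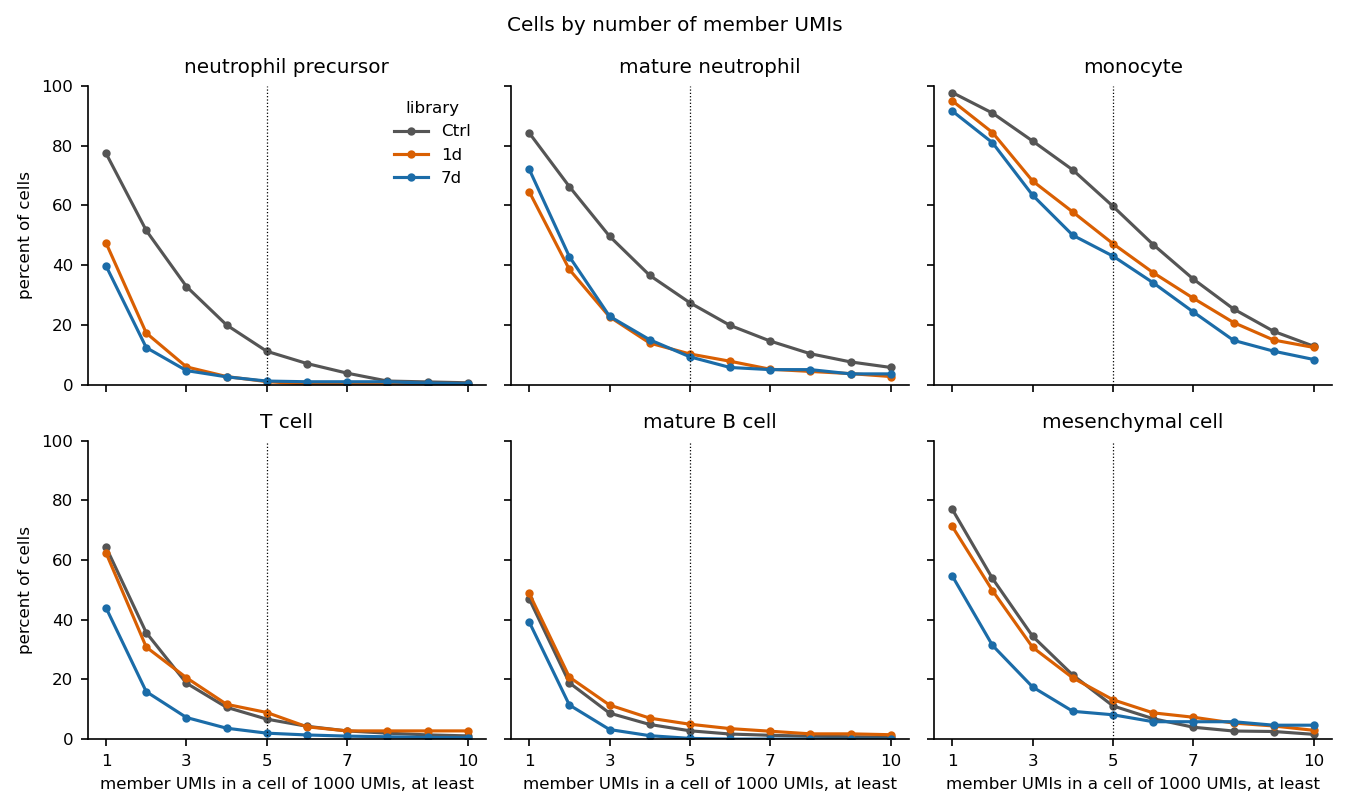
Percent of cells (y axis) with at least a given number of member UMIs out of 1000 (x axis) in 6 cell classes, with a line per library and a dotted line at 5. Monocytes with 5 or more make up 59.7%, 47.2% and 43.0% in Ctrl, 1d and 7d, and neutrophil precursors 11.1%, 0.972% and 1.17%.

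The share of cells with at least 5 member UMIs out of 1000 was also taken. In mature neutrophils it was 27.4% (25.6 to 29.2) in Ctrl, 10.2% (7.48 to 13.6) in 1d and 9.29% (5.04 to 15.4) in 7d. T cells had 6.68%, 8.90% and 1.99% and mature B cells 2.78%, 4.97% and 0.228%. The cut has no natural gap beside it: in mature neutrophils of Ctrl 218 cells had 4 member UMIs and 180 had 5.

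Conventional dendritic cells stood at 5.95, 6.21 and 4.93, with ratios of 1.04 (0.922 to 1.18) in 1d and 0.828 (0.747 to 0.918) in 7d. In 1d 1 of 31 members was higher by 2-fold or more and 0 lower, against 6.05% and 4.02% of all genes. That member was Ifi203, with 36 UMIs in Ctrl and 81 in 1d and a ratio of 3.04 (2.03 to 4.64). In 7d 4 of 37 were higher and 7 lower, against 8.68% and 10.4%. Irf7, the transcription factor that amplifies type I interferon production, was 54.7, 68.8 and 138 CPM in Ctrl, 1d and 7d, and Zbp1 35.6, 24.1 and 78.4. At equal depth Irf7 had 95.2 UMIs per 1000 thinned cells (45.67 to 175.1) in Ctrl. It had 27.4 (3.318 to 98.97) in 1d and 130 (83.57 to 194.1) in 7d. Both intervals overlapped that of Ctrl, so neither a lower 1d value nor a higher 7d value was clear on that scale. In CPM Ifit1 was lower in 7d, at 72.5, 68.8 and 11.3, as were Slfn8 at 35.6, 51.6 and 4.36 and Slfn5 at 226, 160 and 81.9. The libraries held different dendritic clusters: 111 of the 186 cells of 7d lay in a cluster that had 1 cell in Ctrl and 2 in 1d. Macrophage marker RNA in the class stood at 291, 556 and 1001 CPM, and its part in the result was not tested.

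NK or innate lymphoid cells stood at 0.822 in Ctrl, 0.574 in the 47 thinned cells of 1d and 0.660 in 7d, with a 7d ratio of 0.803 (0.711 to 0.908). In 7d 3 of 30 members were lower by 2-fold or more and 2 higher, against 6.92% and 4.84% of all genes. Slfn8 stood at 27.9 and 5.30 CPM in Ctrl and 7d, Parp14 at 52.0 and 21.9 and Gbp3 at 69.7 and 35.1. Bst2 was higher at 52.7 against 31.7, and Rsad2 at 16.2 against 7.61. Without the cell of each library that had most member UMIs, 7 members were lower and 0 higher.

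Macrophages of 1d numbered 43, under the minimum of 50 cells set for comparisons, and were added after the data had been seen. Their levels were 6.1 in Ctrl, 7.69 in 1d and 5.00 in the 15 cells of 7d. The 1d ratio was 1.26 (1.10 to 1.44), and 1.82 (1.55 to 2.14) without Ifitm3, Bst2 and Ifi27l2a. In 1d 21 of 36 members were higher by 2-fold or more and 0 lower, against 4.92% and 4.14% of all genes, and the count was 20 without the cell that had most member UMIs. The median member log2 ratio was 1.19, beside 0.02 over all genes.

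Among the members higher in macrophages of 1d were effectors and sensors. Rsad2 had 165 UMIs in 35 of 149 Ctrl cells, 332 in 19 of 43 cells of 1d and 4 in 7d, and 28.9% of those of 1d came from 1 cell. In CPM it stood at 263, 1102 and 41.3, with a 1d ratio of 4.20 (3.47 to 5.09). Ifit1 was 213 and 604 CPM in Ctrl and 1d, and 0 of 15 cells in 7d had a UMI, which allows a share of cells with a UMI of up to 20%. Ifih1, the sensor of long double-stranded RNA, stood at 60.5 and 246, Cmpk2 at 11.2 and 79.7 and Ifi203 at 116 and 375. Isg15 stood at 406 and 389, and Ifi27l2a was lower, at 1271 and 727. Neutrophil marker RNA in macrophages was 1416 CPM in Ctrl and 4434 in 1d, and its part in the result was not tested. Both macrophage clusters were higher in 1d, at 7.31 against 5.98 and at 8.46 against 6.62.

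Plasmacytoid dendritic cells, the cells known for making type I interferon, stood at 5.30 in the 23 cells of Ctrl, 6.98 in 68 cells of 1d and 3.12 in 57 cells of 7d, and no comparison with Ctrl was made. Slfn5 had 0, 160 and 2 UMIs, the last 2 in 19 cells of 1d and 2 cells of 7d, with 22.5% of those of 1d in 1 cell. Ifi203 had 7, 131 and 14, Ifi207 3, 81 and 5, Trim30a 17, 169 and 35, Stat2 17, 83 and 16 and Irf7 7, 61 and 9. These raw counts do not allow for the different numbers and depths of cells. Per 1000 thinned cells, Stat2 had 174 (47.4 to 445), 132 (60.5 to 251) and 35.1 UMIs, so its 1d value did not lie above Ctrl. Irf7 had 43.5 (1.10 to 242), 176.5 (91.2 to 308) and 35.1 on that scale, with overlapping intervals in Ctrl and 1d. Cells of 1d lay mostly in a cluster with 20, 55 and 18 cells and those of 7d in one with 3, 13 and 39. Within the first the levels were 5.55, 7.56 and 4.67.

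Endothelial cells stood at 5.43 in Ctrl (53 thinned cells), 4.78 in 9 cells of 1d and 3.91 in 23 cells of 7d, led by Ifitm3. Stem or progenitor cells stood at 1.31 in 1d and 0.708 in 7d, with Ctrl holding 11 cells. Epithelial cells were at 1.15 in Ctrl, and mast cells or basophils at 0.534, 0.521 and 0.328, where 119 cells of 7d against 59 of Ctrl gave a ratio of 0.613 (0.371 to 1.02). The unnamed clusters stood at 1.77, 2.22 and 0.811.

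Mesenchymal cells, the cells that build bone and soft tissue, formed a fibroblast-like cluster and a second one led by Bmp2 and had even sums of 2.18 in Ctrl, 2.27 in 1d and 2.22 in 7d. The ratios were 1.04 (0.936 to 1.16) and 1.02 (0.872 to 1.19). Ifitm3 held most of that sum, and without Ifitm3, Bst2 and Ifi27l2a the ratio was 1.43 (1.21 to 1.68) in 1d. In 1d 2 of 35 members were higher by 2-fold or more and 6 lower, against 4.25% and 4.65% of all genes. The 2 were Ifit1, at 44.0 and 91.0 CPM, and Ifit3, at 10.3 and 21.9. Isg15 stood at 76.1 and 124 and Irgm1 at 83.0 and 138, while Ifi27l2a was 49.8 and 11.6 and Ifi203 had 37 UMIs in Ctrl and 2 in 1d. Neutrophil marker RNA in mesenchymal cells stood at 3531 CPM in Ctrl, 1573 in 1d and 173 in 7d, and its part in the result was not tested.

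In 7d 13 of 35 members of mesenchymal cells were higher by 2-fold or more and 4 lower, against 18.8% and 11.5% of all genes, and most of the higher ones rest on 1 cell of 86. That cell had 649 member UMIs among its 15214, where the median cell of the class had 7.00, and it held 33.8% of the class's member UMIs in 7d. It carried 96.2% of the 53 Rsad2 UMIs and 84.7% of the 176 Ifit1 UMIs, it had no Ifnb1 UMI, and 11 UMIs in it were of mesenchymal marker genes. Over 50% of the UMIs came from 1 cell for 10 of the 24 members with at least 15 UMIs. Without the cell of each library that had most member UMIs, the 7d ratio was 0.751 (0.627 to 0.895), 5 members were higher and 5 lower, and the median log2 ratio was -0.24 in place of 0.50. In the fibroblast-like cluster the levels were 2.23, 1.87 and 1.08 and the 7d ratio 0.485 (0.372 to 0.624).

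Erythroid cells, red cell precursors with haemoglobin RNA, had more UMIs of Rsad2 than of any other member in every library. Ctrl held 9 such cells, 1d 89 and 7d 367, with levels of 2.11, 3.26 and 1.93. Rsad2 had 39, 402 and 1766 UMIs, or 1300, 770 and 714 CPM, and was seen in 7 of 9, 53 of 89 and 259 of 367 cells. Isg15 had 1, 262 and 1075 UMIs, Irf9 5, 34 and 259 and Cmpk2 0, 62 and 329. Ifit1 was scarce beside them: it had 1, 5 and 59 UMIs, and 241 of the 259 cells with Rsad2 in 7d had no Ifit1 UMI. Of those 259 cells 157 also had Isg15 and 105 had Cmpk2, while of all 367 cells 199 had Isg15 and 143 had Cmpk2. No single cell of 7d held more than 2.77% of the class's member UMIs. Neutrophil marker RNA in erythroid cells was 300, 7687 and 184 CPM, and its part in the result was not tested.

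Barcodes led by haemoglobin RNA that the filters had removed also held Rsad2 and Isg15. There were 2349 in Ctrl, 756 in 1d and 1094 in 7d, with 511, 640 and 1300 Rsad2 UMIs and 88, 137 and 401 Isg15 UMIs. Cmpk2 had only 1, 2 and 3 UMIs and Irf9 6, 3 and 3. Ifitm3, which had 34.0% of all member UMIs among kept cells, had 39, 14 and 33 there.

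The interferon pathway outside the members was scored with lists chosen with results of these data known. The 6 receptor genes were all measured in neutrophil precursors, where 0 were lower by 2-fold or more in 1d and 5 in 7d, against 10.0% and 10.7% of all genes, with median log2 ratios of -0.49 and -1.19. Ifnar1 and Ifnar2, which form the type I receptor, had 7d ratios of 0.407 (0.288 to 0.570) and 0.477 (0.414 to 0.548) there. In mature B cells 0 of the 5 measured receptors were higher or lower by 2-fold in 1d, where 2.42% and 3.21% of all genes were, or in 7d, where 3.66% and 9.42% were. Of the other interferon-stimulated genes outside the module, 8 of 27 measured in T cells were lower in 7d and 1 was higher, against 6.96% and 3.50% of all genes. In mature B cells of 7d, 7 of 21 were lower and 0 higher, against 9.42% and 3.66%.

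Interferon genes themselves were scarce. Ifng, the interferon gamma gene, lay mostly in lymphocytes: NK cells had 324 UMIs in Ctrl, 26 in 1d and 641 in 7d, or 205, 112 and 212 CPM, and T cells had 197, 43 and 573, or 47.2, 65.6 and 88.9 CPM. Among the T cells of the 3 libraries, those of 7d thus had the highest Ifng level and the lowest module level. Ifnb1, the interferon beta gene, had 17 UMIs in 2 macrophages of Ctrl and 12 in 3 macrophages of 1d, and 8 in 3 monocytes of 1d. In no class of 7d did it pass 1 UMI.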

How the data were processed

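The authors deposited raw UMI counts per gene and cell barcode, made with Cell Ranger 6.1.1 per the file headers and with build mm10 per the submitters' processing notes, which also name CASAVA 1.8 and Seurat without their role. A barcode was kept from 500 UMIs and 250 genes upward if mitochondrial genes gave no more than 15% of its UMIs, and 2.89%, 4.84% and 6.20% of those in Ctrl, 1d and 7d were removed as doublets by Scrublet scores: by its own threshold in Ctrl, and, since that threshold marked only 2 and 0 cells in 1d and 7d, as the top scores at 0.8% per 1000 cells there. Clustering used scanpy 1.11.5 (2000 genes, 30 components, Leiden resolution 1). Levels are member UMIs per cell thinned to 1000 UMIs with exact Poisson intervals. Where no thinned cell had a UMI, the share allowed is 3 divided by the number of thinned cells. That ceiling is approximate and is not one of the exact intervals. Ratios of shares of UMIs have exact binomial intervals, and log2 ratios a pseudocount of 0.5. No test or p-value was computed, since each group is 1 library. The scripts were tested on simulated data. Members to name were ranked by the interval bound closer to a ratio of 1, taking 4 or fewer each way, and joined by 13 set genes and the 5 most abundant. Free RNA was not removed. Members, markers and lists were chosen with earlier results of these data known. The genes Mx1, Mx2, Oas1b, Tcrg-C1 and Tcrg-C4 are not analysed here. Gene coordinates are from GENCODE M21.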

Additional observations from a re-analysis of the deposited data

How the results depend on the processing

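The 8 leading ratios gave 104 values over the alternatives, of which 80 lay inside the main interval, 24 outside and 0 on the other side of 1. The 8 were picked by hand and leave out other ratios whose intervals excluded 1, such as that of monocytes in 1d (0.895). The count of 0 thus holds for these 8 only. Over all module ratios, 225 values lay inside the main interval and 44 outside, and 1 more turned direction where the main interval excluded 1. T cells in 7d (0.543) gave 0.586 with unthinned cells, 0.583 without the top member and 0.646 within 1 cluster. Mature B cells gave 1.48 without Ifitm3, Bst2 and Ifi27l2a and 1.45 without the top member in 1d (1.28), and in 7d (0.614) they gave 0.745 thinned to 2000 UMIs, 0.750 without the 3 genes and 0.726 without the top member. Mature neutrophils in 1d (0.552) gave 0.623 without the 3 genes and 0.470 without the top member, and in 7d (0.648) 0.572 thinned to 500 UMIs and 0.836 without the 3 genes. Monocytes in 7d (0.813) gave 0.649 unthinned, 0.707 without the 3 genes, 0.672 without the top member and 0.657 within 1 cluster. Neutrophil precursors gave 0.321 unthinned and 0.147 without the top member in 1d (0.359). In 7d (0.308) they gave 0.359 with a stricter filter, 0.371 with doublets kept, 0.355 and 0.363 at Leiden resolutions 0.5 and 2, 0.155 without the top member and 0.433 within 1 cluster. Outside these 8, direction turned in several values: within 1 cluster the monocyte ratio in 1d was 1.04 and its median log2 ratio 0.32, and with thinned sums the 1d median was -0.047 in T cells (0.20) and -0.28 in small pre-B or immature B cells (1.09). Ratios whose main interval spanned 1 also crossed it, in 2 of 12 alternatives for NK or innate lymphoid cells in 1d, 2 of 13 for T cells in 1d, 3 of 12 each for conventional dendritic cells and mast cells or basophils in 1d, 4 of 13 for mesenchymal cells in 7d (down to 0.485 within 1 cluster) and 3 of 8 for small pre-B or immature B cells in 1d. Within 1 cluster the median log2 ratio of granulocyte progenitors in 1d was 0.07 in place of -0.34. The values within 1 cluster and those without single cells were chosen after seeing the data. The cause of these shifts was not tested. No paired analysis was possible because each group has 1 library. Depth limits genes with few UMIs most: a gene without a UMI in a class may still be expressed there.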

Other observations

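Genes outside the module were ranked by how closely their level followed the module over the 41 pairs of class and library. Of 10037 candidates with at least 500 UMIs, the closest were Ctsb, a lysosomal protease gene (Spearman's rho 0.81), Picalm (0.76), Slc44a1 (0.76), Lgmn, a second lysosomal protease gene (0.74), and Sppl2a (0.73), followed by Dock4, Gpr137b, Ppard, Nptn and Psap, the last at 0.69. The points share libraries and depth, so the ranking is a description.

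Megakaryocytes, the platelet-forming cells, numbered 18 in Ctrl and 16 in 1d, with levels of 2.39 and 0.467, and 7d held none. Osteoclasts, the bone-resorbing cells, numbered 10, 4 and 3. Of the 4 osteoclasts of 1d, 1 had 536 member UMIs, 95.4% of the class's, and 10 Ifnb1 UMIs, the most of any class in 1d after macrophages with 12.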
